A study of Mus musculus with 4 samples.

Results

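The 9 genes described here are names long used for the choroid plexus, read in cultured mouse microglia: Ttr, Clic6, Folr1, Kl, Otx2, Enpp2, Slc4a5, Prlr and Igfbp2. They were taken by gene name from a deposited table of 51826 gene models and set beside Ttr, and all 9 were found and passed the filter on low counts that left 19057 genes. The series, whose title names the lysophosphatidylserine receptor GPR34, has 4 libraries in 2 groups. In 2 libraries the cells had been exposed to LysoPS (lysophosphatidylserine, a phospholipid that keeps a single fatty acid chain) for 4 h, and 2 libraries were mock and labelled untreated. A general note on treatment speaks of 1 treated replicate, whereas 2 samples name LysoPS in their own labels, and the samples' own labels were followed. All came from C57BL/6 mice. The cultures were started from brains of newborn animals after the meninges had been taken off, grew as mixed glia, and gave up their microglia to gentle shaking. No genetic change is given for either group, and the labels do not say whether replicates came from separate litters or cultures, so the spread between them may be technical. The 9 names were chosen by measured values of these libraries. Which of the values is not recorded, so levels and LysoPS-to-mock differences were both counted as used and are given as a description without a test.

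The choroid plexus is a sheet of epithelium in the brain ventricles that secretes cerebrospinal fluid. Its cells pump sodium, bicarbonate and chloride, carry folate and hormones from blood to fluid, and release carrier proteins, of which transthyretin (the product of Ttr) is the best known. OTX2 is a homeobox transcription factor that this epithelium needs to form and to persist. Most of the 9 genes are also read in other cells: liver makes transthyretin, meninges and glia make IGFBP2, and oligodendrocytes make autotaxin (ENPP2).

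Promoter sequence was at hand for 5 of the 9 genes (Kl, Otx2, Slc4a5, Prlr and Igfbp2; RefSeq, GRCm38.p6), as the 250 bases before an annotated start. The windows of Kl and Slc4a5 are shown because these genes had the largest fold differences after Ttr, and that of an internal Otx2 start because it holds OTX2's own core motif. Each is written 5′ to 3′ on the gene's strand.
Kl, chr5:150952357-150952606, plus strand: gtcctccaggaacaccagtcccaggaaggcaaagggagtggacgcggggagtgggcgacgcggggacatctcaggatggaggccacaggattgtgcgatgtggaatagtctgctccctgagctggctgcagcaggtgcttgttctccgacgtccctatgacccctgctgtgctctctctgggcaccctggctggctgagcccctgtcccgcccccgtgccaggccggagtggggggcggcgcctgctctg
Slc4a5, chr6:83237125-83237374, plus strand: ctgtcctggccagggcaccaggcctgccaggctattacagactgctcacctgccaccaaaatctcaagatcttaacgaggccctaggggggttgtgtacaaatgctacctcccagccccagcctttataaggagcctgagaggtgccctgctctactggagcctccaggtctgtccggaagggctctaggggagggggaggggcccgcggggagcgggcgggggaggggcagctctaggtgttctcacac
Otx2, chr14:48665110-48665359, minus strand: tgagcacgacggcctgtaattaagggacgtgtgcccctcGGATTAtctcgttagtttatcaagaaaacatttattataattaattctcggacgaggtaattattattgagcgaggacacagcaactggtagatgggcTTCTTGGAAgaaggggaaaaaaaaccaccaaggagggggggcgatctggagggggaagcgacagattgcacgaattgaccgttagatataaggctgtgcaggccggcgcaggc
Capitals mark matches to 3 motifs searched on both strands: the OTX2 core TAATCC (reverse complement GGATTA), the forkhead site GTAAACA and the STAT site TTCNNNGAA. The windows of Kl and Slc4a5 held none of these letters. The Otx2 window held GGATTA from base −211 and TTCTTGGAA from base −113, counted back from the start. Otx2 has 4 such windows, and none of the others held any of the 3 motifs, including that at the 5′ end of the deposited gene model. Among windows not shown, that of an internal Prlr start held matches. These were TGTTTAC, the forkhead site reversed, from base −215 and the STAT site TTCTAGGAA from base −110. That start lies 46668 bases from the 5′ end of the deposited Prlr model. The other windows of Prlr and those of Igfbp2 held none. Of 32851 promoter windows of the same length, 6.25% held the OTX2 core, 3.17% the forkhead site and 7.02% the STAT site. The Otx2 start shown lies 2535 bases from the 5′ end of the deposited gene model, and the Slc4a5 start 17547 bases from it. A match is a run of letters and not evidence of binding.

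Ttr stood far above its mock level in both LysoPS libraries, and was the most abundant of the 9 there. It had 32527 and 32756 counts in the LysoPS libraries, against 3619 and 5242 in the mock libraries. As CPM, counts scaled to a common library size, these were 972 and 749 in LysoPS and 117 and 121 in mock. The groups lay far apart, with a mean of 861 ± 157 CPM in LysoPS and 119 ± 2.64 CPM in mock (SD, n = 2 each). The log2 fold change, LysoPS over mock, was 2.85 ± 0.138 (SE), or 7.21-fold. By TPM, which also corrects for transcript length, Ttr ranked 55th and 68th among all gene models in the LysoPS libraries, against 627th and 577th in mock. By size of log2 fold change it was the 194th highest of the 19057 tested genes, with 1.01% of genes above it. In bulk RNA, fewer cells of a type and less RNA per cell cannot be told apart, so a level is not a number of expressing cells. The antisense model Gm16090 overlaps the 5′ end of Ttr on chromosome 18 and held at most 5 counts in any library.

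**Figure D1:**
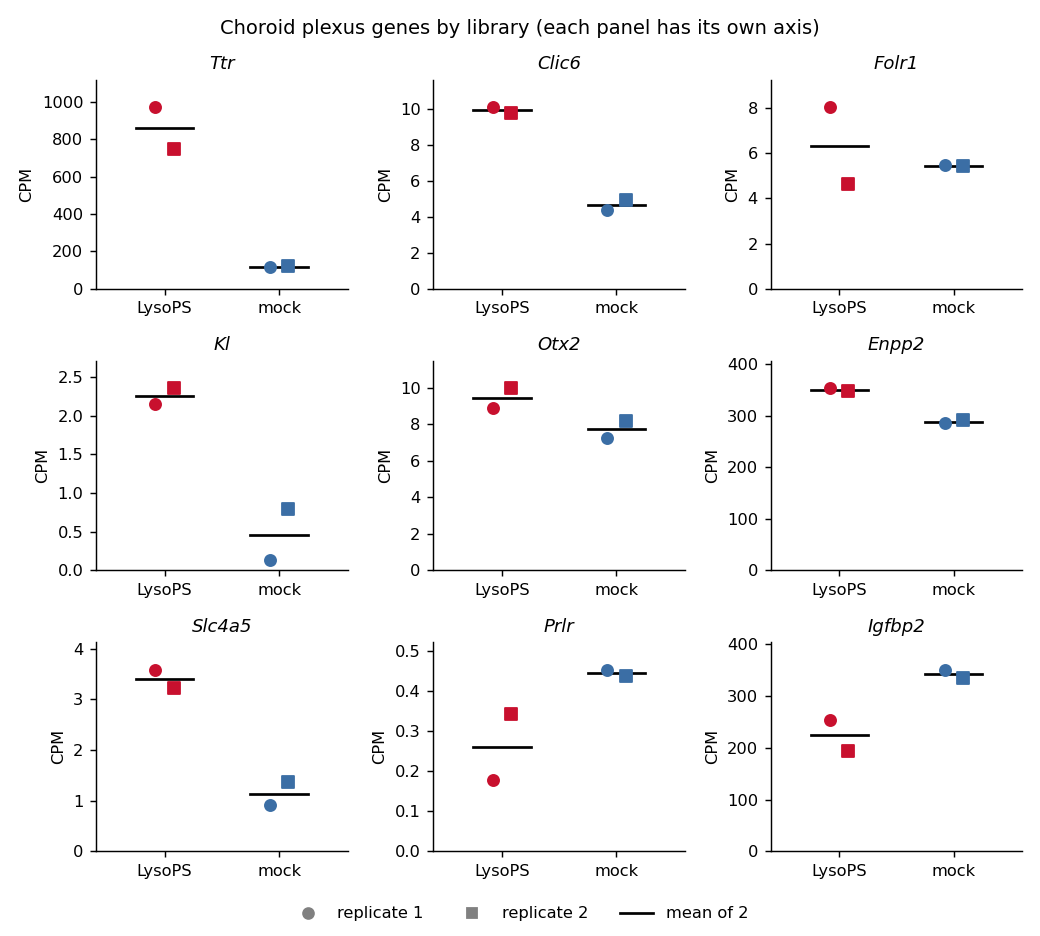
Level of each of the 9 genes in the 4 libraries, in CPM on TMM-scaled library sizes, each panel with its own axis from 0. Circles are replicate 1, squares replicate 2 and bars the mean of 2; Ttr lies at 972 and 749 in LysoPS against 117 and 121 in mock, while Igfbp2 and Prlr lie lower in both LysoPS libraries and Folr1 overlaps.

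Between them, the 9 genes summed to 1612 and 1322 CPM in the LysoPS libraries and to 772 and 770 CPM in the mock libraries. Ttr made up 60.3% and 56.7% of that sum in LysoPS, against 15.2% and 15.7% in mock. Without Ttr, the other 8 genes summed to 641 and 572 CPM in LysoPS and to 655 and 649 CPM in mock. The higher sum in LysoPS lay in Ttr.

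Both LysoPS libraries lay above both mock libraries for 6 members (Ttr, Clic6, Kl, Otx2, Enpp2, Slc4a5) and below them for 2 (Prlr, Igfbp2), and the groups overlapped for Folr1. Among all tested genes 67.0% had groups that did not overlap, 32.5% with LysoPS above and 34.5% with LysoPS below. At an adjusted p of 0.05 in the fit over all genes, 5 of the 9 were called, with Ttr, Clic6, Slc4a5 and Enpp2 higher and Igfbp2 lower. Of all tested genes 25.5% were called, 12.8% higher and 12.6% lower. These counts come from the contrast that was counted as used in choosing the members, and nothing is read from them. Without mock replicate 1 the count was 3. The median log2 fold change of the 9 was 0.29, and that of all tested genes −0.01.

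The other secreted members, Igfbp2 and Enpp2, were abundant in every library and lay on opposite sides. Igfbp2 encodes a binding protein for insulin-like growth factors (chr1:72824503-72852474, plus strand, GRCm38). It had 8513 and 8491 counts in LysoPS and 10811 and 14518 in mock. That was 254 and 194 CPM in LysoPS and 351 and 336 CPM in mock, with both LysoPS libraries lower. Its log2 fold change was −0.61 ± 0.135. Enpp2 encodes autotaxin, a secreted enzyme that makes lysophosphatidic acid from lysophosphatidylcholine and can act on other lysophospholipids (chr15:54838898-54920146, minus strand). It had 11824 and 15205 counts in LysoPS and 8785 and 12632 in mock. At 353 and 348 CPM in LysoPS and 285 and 292 CPM in mock, the replicates lay close together and the groups apart. The log2 fold change was 0.28 ± 0.057, with the smallest standard error of the 9. Leaving out either mock library ended the call of both genes, with log2 fold changes of −0.58 and −0.65 for Igfbp2 and of 0.26 and 0.30 for Enpp2 without mock replicate 1 and 2 in turn.

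Among the transport genes, Slc4a5 and Clic6 were higher in LysoPS at low levels. Slc4a5 encodes a sodium-bicarbonate cotransporter of the epithelium's ventricular face (chr6:83219828-83304945, plus strand). It had 120 and 141 counts in LysoPS and 28 and 59 in mock, or 3.58 and 3.23 CPM in LysoPS and 0.909 and 1.36 CPM in mock. Its log2 fold change was 1.56 ± 0.260. The transcript length that its counts and FPKM values together imply varied by 1.34 times between libraries, a sign that the transcript models given reads may differ between libraries, which was not tested. Clic6, a chloride intracellular channel family gene (chr16:92485736-92541243, plus strand), had 339 and 427 counts in LysoPS and 136 and 214 in mock. It averaged 9.95 ± 0.254 CPM in LysoPS and 4.68 ± 0.377 CPM in mock (SD, n = 2 each), with no overlap. The log2 fold change was 1.08 ± 0.132.

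Folr1 encodes folate receptor alpha, which carries folate across the choroid plexus (chr7:101858331-101870788, minus strand). It had 269 and 202 counts in LysoPS and 168 and 235 in mock. At 8.04 and 4.62 CPM in LysoPS and 5.45 and 5.43 CPM in mock, the LysoPS libraries lay on either side of mock. The log2 fold change was 0.21 ± 0.279. It was 0.56 without LysoPS replicate 2, with a call that all 4 libraries did not give, and −0.24 without LysoPS replicate 1. Anapc15 overlaps Folr1 on the opposite strand and held 651 and 801 counts in LysoPS and 474 and 902 in mock. No label says whether reads keep their strand, so reads of Folr1 and Anapc15 may be mixed.

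The hormone-receptor members Kl and Prlr were near the lower limit of detection. Kl encodes klotho, the co-receptor through which FGF23 acts (chr5:150952607-150993817, plus strand). It had 72 and 103 counts in LysoPS and 4 and 34 in mock, or 2.15 and 2.36 CPM in LysoPS and 0.130 and 0.786 CPM in mock. The LysoPS libraries were alike, the mock libraries were far apart, and the groups did not overlap. The log2 fold change was 2.21 ± 0.641, the largest after Ttr and the least certain. It was 1.52 without mock replicate 1 and 4.08 without mock replicate 2, and only the value without mock replicate 2 was called among those with a library left out. Prlr encodes the prolactin receptor (chr15:10177238-10349180, plus strand). It had 6 and 15 counts in LysoPS and 14 and 19 in mock, or 0.179 and 0.343 CPM in LysoPS and 0.454 and 0.439 CPM in mock. Its log2 fold change was −0.73 ± 0.478. Its implied transcript length varied by 8.77 times between libraries, so its TPM values, 0.0291 and 0.0860 in LysoPS and 0.736 and 0.114 in mock, do not follow its counts.

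Otx2, the transcription factor (chr14:48657679-48667644, minus strand), had 298 and 436 counts in LysoPS and 224 and 355 in mock. It stood at 8.90 and 9.97 CPM in LysoPS and 7.27 and 8.21 CPM in mock, with a small gap between the groups. The log2 fold change was 0.29 ± 0.135. Its antisense transcript Otx2os1 had 0.239 and 0.229 CPM in LysoPS and 0.519 and 0.462 CPM in mock, with a log2 fold change of −1.06 and an adjusted p of 0.123 (edgeR's quasi-likelihood test, Benjamini-Hochberg). Otx2os1 was named after its values were seen.

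Set beside Ttr in the same library, 7 of the other 8 genes were a smaller share of Ttr's TPM in LysoPS than in mock. Only 1.01% of all tested genes had a higher log2 fold change than Ttr, so nearly any gene would fall beside it. Nothing is read from the count. Igfbp2 was 27.8% and 24.7% of Ttr in LysoPS, against 289% and 266% in mock, so Ttr and Igfbp2 changed places as the most abundant of the 9. Enpp2 was 14.9% and 19.0% of Ttr in LysoPS, against 96.8% and 98.5% in mock, where the levels of the 2 genes were nearly equal. Folr1 was 1.47% and 0.943% of Ttr in LysoPS, against 7.82% and 6.77% in mock. Otx2 was 0.687% and 1.00% in LysoPS, against 4.45% and 4.93% in mock. Clic6 was 0.337% and 0.422% in LysoPS, against 1.21% and 1.32% in mock. Slc4a5 was 0.117% and 0.108% in LysoPS, against 0.182% and 0.267% in mock. All these groups lay apart.

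The log2 of a member's TPM over Ttr's differed, LysoPS minus mock, by −3.40 for Igfbp2, −2.63 for Folr1, −2.54 for Enpp2, −2.50 for Otx2, −1.75 for Clic6 and −0.98 for Slc4a5. Prlr gave −5.20 by TPM and −3.69 by counts, which its unstable transcript length separates. Kl was the exception, at 0.04, where the square root of the summed replicate variances of both groups was 1.83. Its LysoPS replicates stood at 0.0521% and 0.0715% of Ttr, between the mock replicates at 0.0245% and 0.144%. By counts, and without LysoPS replicate 2 or mock replicate 1, all 8 differences were below 0. The fitted log2 fold change minus that of Ttr ran from −0.64 for Kl and −1.29 for Slc4a5 to −3.46 for Igfbp2 and −3.58 for Prlr. All 8 differences share Ttr's own values, so they are not separate observations.

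**Figure D2:**
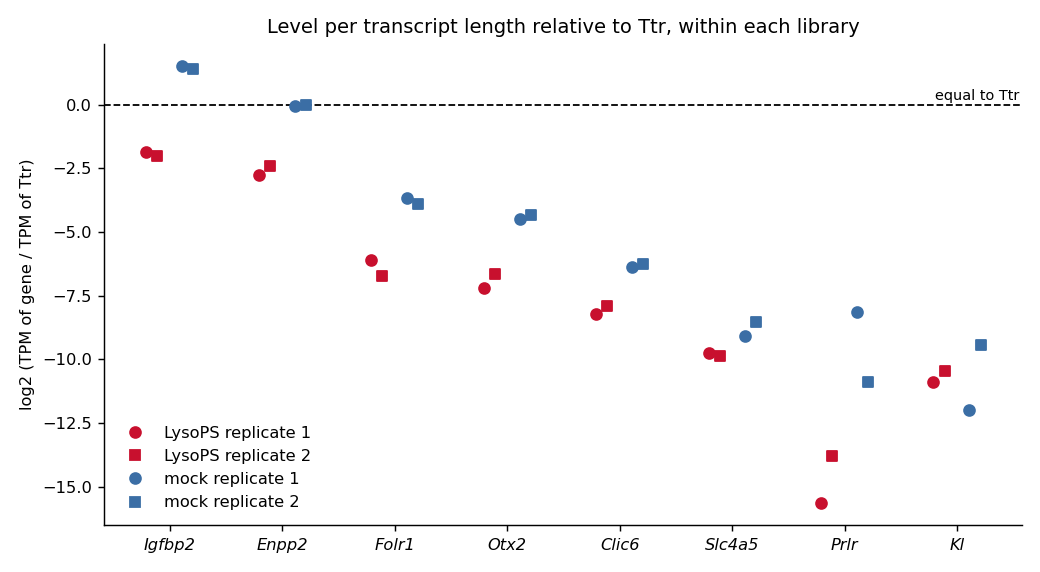
Log2 of the TPM of each of the other 8 genes over the TPM of Ttr in the same library; red is LysoPS, blue is mock, and the dashed line marks a level equal to Ttr. In mock Igfbp2 lies above the line and Enpp2 just under it, in LysoPS both lie well below it, and Kl is the gene whose mock replicates span its LysoPS replicates.

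Ordered by TPM, the LysoPS libraries ran Ttr, Igfbp2, Enpp2, then Folr1 and Otx2, then Clic6, Slc4a5, Kl and Prlr. Ttr had 1497 and 1212 TPM in LysoPS and 206 and 219 TPM in mock. Igfbp2 had 417 and 299 TPM in LysoPS and 596 and 581 TPM in mock, and Enpp2 had 223 and 230 TPM in LysoPS and 199 and 216 TPM in mock. Folr1 and Otx2 changed places between the LysoPS replicates, with 22.0 and 11.4 TPM for Folr1 and 10.3 and 12.1 TPM for Otx2. Those neighbours did not differ beyond their spread. In mock the order was Igfbp2, Ttr, Enpp2, Folr1, Otx2 and Clic6, with Ttr and Enpp2 close. Clic6 had 5.04 and 5.11 TPM in LysoPS and 2.50 and 2.89 TPM in mock. The order of Slc4a5, Kl and Prlr in mock differed between replicates.

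Likeness to Ttr was measured as the root mean square difference between a gene's log2 CPM, centred on its mean over the 4 libraries, and that of Ttr. Over 12626 genes with a mean of at least 5 CPM, the nearest were Slco4a1, an organic anion transporter (0.047), Batf, a transcription factor of immune cells (0.062), Ncf4, a subunit of the phagocyte NADPH oxidase (0.083), Pik3r6, a regulatory subunit of PI3-kinase gamma (0.095), and Clec4d, a C-type lectin (0.101). Slco4a1 had 23.5 and 19.5 CPM in LysoPS and 3.02 and 3.12 CPM in mock. Of the members, Slc4a5 was nearest at 0.667, followed by Kl at 0.795 and Clic6 at 0.887. Placed in the same order, Slc4a5, Kl and Clic6 would stand 241st, 347th and 451st, and Igfbp2 and Prlr 11426th and 11950th. With 4 libraries in 2 groups this measure follows little more than the size of the fold change.

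Genes listed for the choroid plexus outside the 9 were split between both directions. Which cells of the cultures gave their reads was not tested, so the split is one of listed genes and not of a cell type. Of 57 such genes 55 were tested, and 18 were higher and 13 lower in LysoPS, or 56.4% called against 25.5% of all tested genes. These lists and those that follow were chosen with earlier results of these data known. Their shares and adjusted p values are therefore given as a description. Their median log2 fold change was 0.11. Without mock replicate 1 the number called was 17, and without mock replicate 2 it was 13. For 26 of the 55 both LysoPS libraries lay above mock and for 22 below, where 32.5% and 34.5% of all tested genes did so.

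Of 20 transport genes 5 were higher and 5 lower, with a median log2 fold change of −0.28. Slc22a8, an organic anion transporter that clears solutes from the fluid, fell to 14.1 ± 1.13 CPM in LysoPS, against 39.1 ± 2.02 CPM in mock (log2 fold change −1.47, adjusted p = 0.00136, edgeR's quasi-likelihood test with Benjamini-Hochberg adjustment, as for every adjusted p here). The sulfate transporter gene Slc13a4 also fell, to 34.6 CPM against 77.6 CPM in mock (−1.17, adjusted p = 0.00167). Car12, a membrane carbonic anhydrase, rose to 14.4 ± 3.19 CPM in LysoPS, against 3.44 ± 0.226 CPM in mock (2.06, adjusted p = 0.00305). The drug and nucleotide exporter gene Abcc4 rose by 0.69 (adjusted p = 0.00819), a call lost without mock replicate 2 (0.61, adjusted p = 0.0522). The water channel gene Aqp1, named after its values were seen, had 71.5 ± 2.87 CPM in LysoPS and 69.2 ± 0.853 CPM in mock, with overlapping groups.

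Of 14 secreted or matrix genes 4 were higher and 3 lower (median 0.32). Bmp7, a bone morphogenetic protein, fell to 53.8 ± 3.54 CPM in LysoPS, against 118 ± 4.63 CPM in mock (−1.13, adjusted p = 0.00152). 1500015O10Rik, also called Ecrg4, fell to 36.8 CPM against 60.3 CPM in mock (−0.71, adjusted p = 0.00708). Ace, the angiotensin-converting enzyme, rose to 16.7 ± 3.40 CPM in LysoPS, against 7.17 ± 0.826 CPM in mock (1.22, adjusted p = 0.0105). Sulf1, a heparan sulfate sulfatase, rose by 0.58 (adjusted p = 0.00387).

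Of 23 epithelial genes 21 were tested, and 9 were higher and 5 lower (median 0.33). Tmem72, a membrane protein gene, differed from Ttr by 0.124 in the likeness measure above, and Krt18 by 0.095. It rose to 16.3 ± 0.908 CPM in LysoPS, against 2.51 ± 0.0540 CPM in mock (2.70, adjusted p = 0.000488). The keratin gene Krt18 rose to 3.98 ± 1.04 CPM in LysoPS, against 0.565 ± 0.0185 CPM in mock (2.80, adjusted p = 0.00355), and the serotonin receptor gene Htr2c to 3.88 ± 0.335 CPM in LysoPS, against 0.827 ± 0.0245 CPM in mock (2.23, adjusted p = 0.00273). Stra6, the receptor for retinol-binding protein, fell to 280 ± 4.71 CPM in LysoPS, against 491 ± 3.61 CPM in mock (−0.81, adjusted p = 0.00133). The implied transcript length varied by 1.32 times for Tmem72 and by 1.87 times for Htr2c. Cldn3, a tight junction gene below the filter, had 2 and 4 counts in LysoPS and 0 in both mock libraries.

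**Figure D3:**
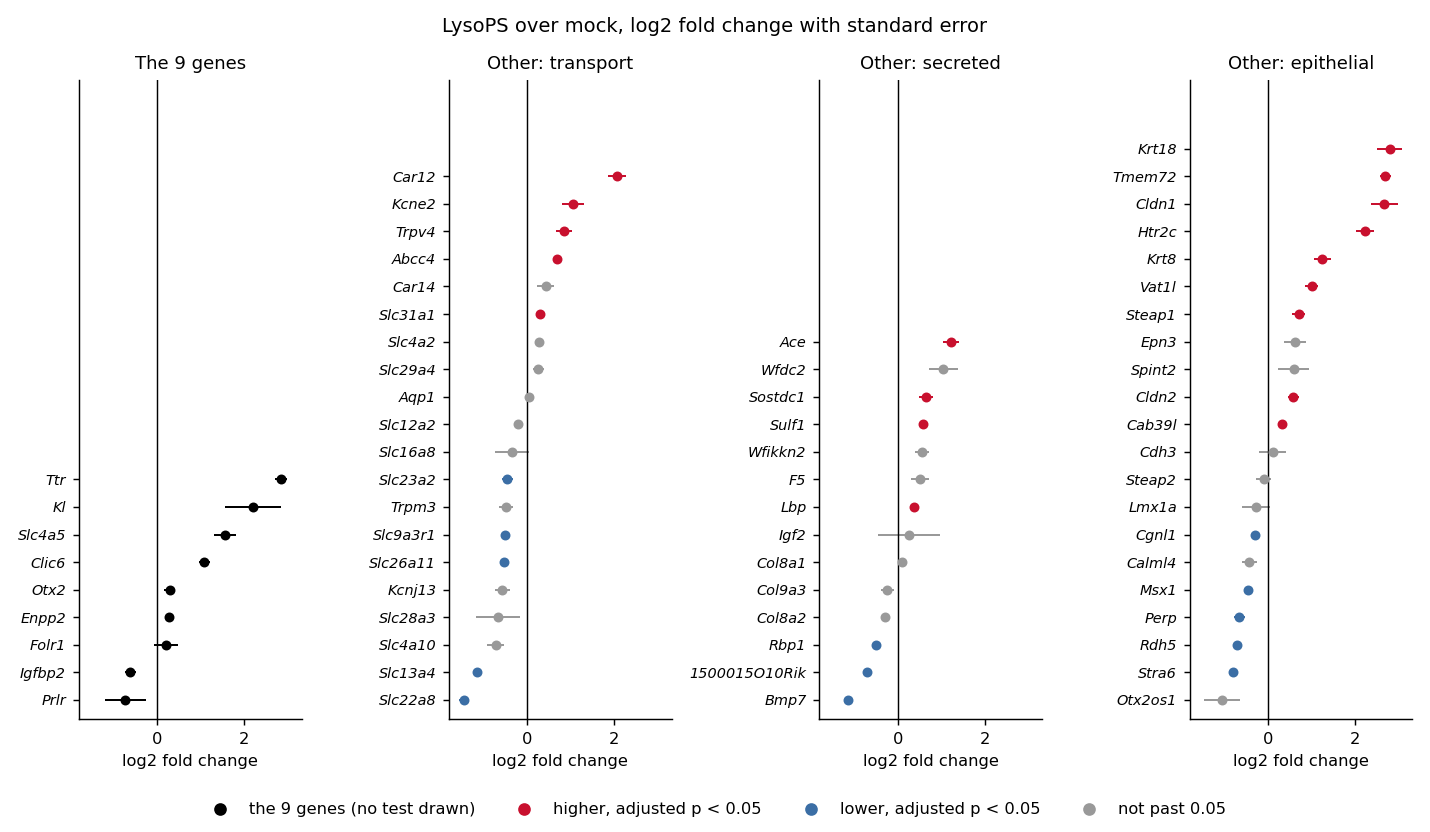
Log2 fold change, LysoPS over mock, with its standard error for the 9 genes and the 55 tested genes of the transport, secreted and epithelial lists, sorted within each panel. Red marks genes higher and blue genes lower at an adjusted p under 0.05, grey the rest and black the 9 genes, for which no test is drawn; every panel holds genes on both sides of 0, from −1.47 for Slc22a8 to 2.85 for Ttr.

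Genes that act with the members' products were read from 6 further lists, with 9 higher and 15 lower of 54 tested, or 44.4% called. Of all tested genes 25.5% were called, 12.8% higher and 12.6% lower, and the count of each list stands beside these shares. Without mock replicate 1 the number called was 13, and without mock replicate 2 it was 14. For transthyretin's cargo, 1 of 10 thyroid hormone and retinol genes was higher and 4 were lower (median −0.10). The amino acid and thyroid hormone transporter gene Slc7a8 rose by 0.60 (adjusted p = 0.00604), while Slco1c1, a thyroxine transporter gene, fell by 0.88 (adjusted p = 0.00638) and the thyroid hormone receptor gene Thra fell by 0.59 (adjusted p = 0.0066). Dio3, which inactivates thyroid hormone, stood at 0.388 ± 0.128 CPM in LysoPS and 1.38 ± 0.252 CPM in mock (−1.84, adjusted p = 0.0228), a call lost without LysoPS replicate 2 (−1.51), mock replicate 1 (−1.65) or mock replicate 2 (−2.02). Of 9 folate genes 1 was higher and 1 lower (median 0.05), or 22.2% called, near the share of all tested genes. Folr2, the folate receptor of macrophages, had 9.37 ± 2.00 CPM in LysoPS and 16.7 ± 0.0950 CPM in mock (−0.84, adjusted p = 0.0235), a call lost without mock replicate 1 (−0.83) or 2 (−0.84). Fpgs and Tyms stood at 0.64 and 0.30 and did not pass.

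Downstream of autotaxin, 6 of 9 lysophosphatidic acid receptor and phosphatase genes were lower and 1 was higher, with a median log2 fold change of −0.70. Plpp3, a phosphatase that degrades lysophosphatidic acid, fell to 282 ± 15.4 CPM in LysoPS, against 465 ± 9.54 CPM in mock (−0.72, adjusted p = 0.00273). The receptor genes Lpar6 and Lpar2 fell by 0.70 (adjusted p = 0.00751) and by 0.88 (adjusted p = 0.00864). Lpar1 had a log2 fold change of −0.50 (adjusted p = 0.0163), a call lost without mock replicate 1 (−0.52) or 2 (−0.48).

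Beside Igfbp2, 2 of 9 tested genes of the insulin-like growth factor axis were higher and 3 lower (median −0.25). The binding protein genes Igfbp6 and Igfbp5 fell by 1.09 (adjusted p = 0.00106) and by 1.03 (adjusted p = 0.00238). Igfbp5 had 627 ± 60.2 CPM in LysoPS and 1282 ± 79.6 CPM in mock. Igfbp7 went the other way, with 48.3 ± 4.35 CPM in LysoPS and 16.7 ± 2.38 CPM in mock (1.53, adjusted p = 0.00239). Igf1 had a log2 fold change of −0.44 (adjusted p = 0.00797), a call lost without mock replicate 2 (−0.42), and its implied transcript length varied by 1.52 times. Igfbp1 was below the filter, with 2 counts in LysoPS replicate 1 and 0 in the other libraries.

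For klotho and the prolactin receptor, 2 of 8 tested genes were higher and 0 lower (median 0.39), or 25% called against 25.5% of all tested genes. The transcription factor gene Stat5a, which acts downstream of prolactin among other signals, rose to 21.3 ± 1.97 CPM in LysoPS, against 10.1 ± 1.16 CPM in mock (1.07, adjusted p = 0.00628). Jak2, a kinase bound to the prolactin receptor, had a log2 fold change of 0.48 (adjusted p = 0.00845), a call lost without mock replicate 1 (0.46) or 2 (0.51). Stat5b and Socs2 stood at 0.29 and −0.31 and did not pass. The ligands were all but unread: Fgf23 had 0 counts in all 4 libraries, and Prl 0 in both LysoPS libraries and 0 and 2 in mock. Cyp24a1, the vitamin D hydroxylase gene, had 0 counts in both LysoPS libraries and 4 and 2 in mock. Of 9 tested bicarbonate and chloride genes related to Slc4a5 and Clic6, 2 were higher and 1 lower (median −0.20), or 33.3% called. The cotransporter gene Slc4a4 fell to 93.9 ± 14.2 CPM in LysoPS, against 213 ± 16.3 CPM in mock (−1.18, adjusted p = 0.00399). Slc4a7 had a log2 fold change of 0.95 (adjusted p = 0.0141), a call lost without mock replicate 1 (0.86). Clic1 had a log2 fold change of 0.43 (adjusted p = 0.0227), a call lost without mock replicate 1 (0.49) or 2 (0.38). Slc4a3 stood at −0.30 and did not pass, and Car4 had 0 counts in LysoPS and 0 and 2 in mock.

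Markers of other cells moved between the groups beside these genes, and their part in the results above was not tested. Of the tested markers 58.9% were called, against 25.5% of all tested genes. Microglial markers were read in every library and summed to 3360 and 2991 CPM in LysoPS and to 2739 and 2448 CPM in mock, with 7 of 11 higher and 1 lower. Aif1, a macrophage calcium-binding protein gene, rose to 65.4 ± 5.23 CPM in LysoPS, against 13.0 ± 0.854 CPM in mock (2.33, adjusted p = 0.000457). Astrocyte markers were more abundant, at 5216 and 5942 CPM in LysoPS and 11082 and 9981 CPM in mock, with 9 of 10 lower. Gfap, the astrocyte filament gene, fell to 2790 ± 156 CPM in LysoPS, against 5827 ± 203 CPM in mock (−1.06, adjusted p = 0.000912). Meningeal fibroblast markers summed to 6588 and 6637 CPM in LysoPS and to 7693 and 7770 CPM in mock, with 7 of 12 lower and 0 higher. Ependymal markers, of the ciliated cells that border the plexus, summed to 348 and 342 CPM in LysoPS and to 543 and 516 CPM in mock, with 8 of 12 lower and 0 higher. Their regulator Foxj1 fell to 162 ± 3.88 CPM in LysoPS, against 246 ± 7.40 CPM in mock (−0.60, adjusted p = 0.00393).

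Oligodendrocyte markers summed to 201 and 191 CPM in LysoPS and to 209 and 193 CPM in mock, with 5 of 8 tested higher and 1 lower. Endothelial markers summed to 174 and 199 CPM in LysoPS and to 354 and 349 CPM in mock, with 3 of 7 tested lower and 0 higher. Most of that sum was Cdh5, at 147 and 170 CPM in LysoPS and 306 and 296 CPM in mock. Pecam1 lay the other way, at 1.70 and 2.10 CPM in LysoPS and 0.0974 and 0.740 CPM in mock, and was not called. Cldn5 had 0 counts in both LysoPS libraries and 2 and 0 in mock. Neuronal markers summed to 453 and 496 CPM in LysoPS and to 409 and 406 CPM in mock, with 1 of 6 higher. Markers of pigment epithelium, another tissue that expresses Otx2 and Ttr, summed to 19.7 and 18.9 CPM in LysoPS and 21.4 and 18.2 CPM in mock. Of 5 tested 1 was lower. Most of that sum was Rlbp1, at 15.7 and 15.0 CPM in LysoPS and 15.4 and 13.1 CPM in mock. Rpe65 was below the filter, with 5 and 9 counts in LysoPS and 12 and 8 in mock. Tyr had 0 and 2 counts in LysoPS and 0 in both mock libraries. Hepatocyte markers, of the other main source of transthyretin, summed to 1.64 and 1.78 CPM in LysoPS and to 2.17 and 1.62 CPM in mock. Of 8 hepatocyte genes 2 were tested and neither was called, Ahsg had 0 counts in every library, Alb had 4 counts in LysoPS replicate 1 and 0 elsewhere, and Serpina1a had 0 counts in both LysoPS libraries and 0 and 1 in mock.

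**Figure D4:**
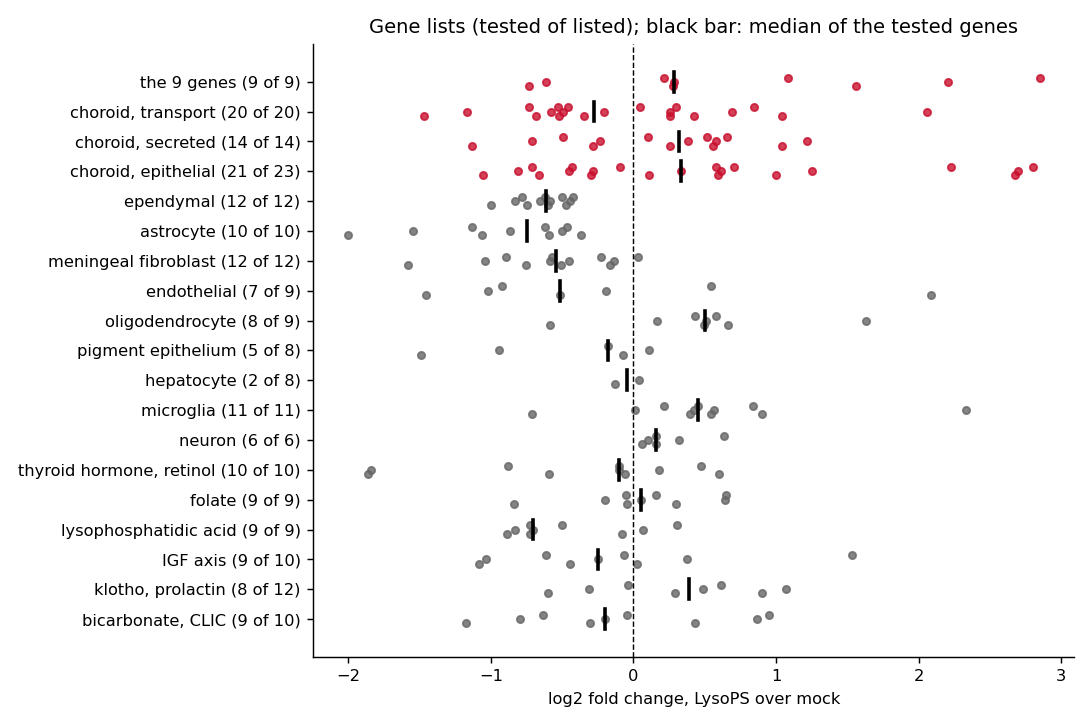
Log2 fold change, LysoPS over mock, of each tested gene of every list, with the number tested of those listed beside its name, a black bar at the list's median and a dashed line at 0. The 9 genes and the other choroid plexus lists (red) spread to both sides, with medians from −0.28 to 0.33, while the astrocyte and ependymal genes all lie below 0, with medians of −0.74 and −0.61.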

How the data were processed

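Messenger RNA was measured in 4 libraries. Per the submitters' processing notes, FastQC 0.11.2, Trimmomatic 0.36, HISAT2 and StringTie were used with GRCm38; for parameters, annotation release and counting program, the entry is not given in the sources used here. The deposited table holds, per the file headers, counts, TPM and FPKM by gene model and library. The deposited counts were whole numbers (30001098 to 45193959 per library) and were tested; deposited TPM values were used for levels per length and deposited FPKM values for implied transcript length.

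Counts were analysed with edgeR 4.0.16 in R 4.3.3: filterByExpr (minimum count 10), TMM scaling (factors 0.966 to 1.04), and a two-sided quasi-likelihood F test with 2 residual degrees of freedom and Benjamini-Hochberg adjustment over 19057 genes at 0.05. The biological coefficient of variation was 0.150. CPM uses TMM-scaled sizes, and log2 CPM a prior count of 2. The procedure was tested on simulated counts. It recovered 7 of 49 genes changed 1.5-fold, 37 of 48 changed 2-fold, 48 of 49 changed 4-fold and 50 of 50 changed 8-fold. Of 147 calls 5 were false. A gene that was not called may therefore still differ, above all at the smaller folds. Replicates differed by more than sampling noise (chi-square per degree of freedom 27.7 in LysoPS, 18.0 in mock). Gene coordinates are those of the deposited table, and 6 of the 9 genes have the same ones in GENCODE M21. All 9 genes were named, up to 4 tested genes of each other list with the smallest p or with no count in a group, and the 5 genes nearest to Ttr; for lists of other cells only the leading ones are given, and a gene that the rule takes is not reported here. Members and lists were chosen with earlier results of these data known. Alternatives were DESeq2 size factors, DESeq2 1.42.0, limma-voom (limma 3.58.1), other filters, a replicate block, each library left out, and count, FPKM or TPM ratios.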

Additional observations from a re-analysis of the deposited data

How the results depend on the processing

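The number of genes called was 4854 and lay between 4399 and 5433 under DESeq2 size factors, either filter, DESeq2's Wald test, limma-voom and the replicate block, while leaving out a library gave 2165 to 5356. With a library left out, its group's remaining sample is assumed to vary like the other group. The same removals gave 3 to 6 of the 9 genes called (5 with all libraries), 13 to 28 of the other choroid plexus genes (31), 13 to 22 of the partner genes (24) and 26 to 43 of the other cell type markers (43). The genes below Ttr's difference numbered 7 of 8, 8 by ratio of counts and 7 to 8 with a library left out. Igf2, a secreted list gene at 55.7 and 290 CPM in LysoPS and 136 and 153 CPM in mock, ran from −1.37 without LysoPS replicate 2 to 1.00 without LysoPS replicate 1, against 0.26 with all; the cause was not tested. From the ratio of mean TPM with a pseudocount of 0.1, every member kept its sign: Ttr 2.67, Kl 1.71, Slc4a5 1.49, Clic6 0.89, Otx2 0.17, Enpp2 0.13, Folr1 0.11, Igfbp2 −0.72 and Prlr −1.74. With a pseudocount of 1 the low genes lay nearer to 0, at 0.62 for Kl, 0.77 for Slc4a5, 0.72 for Clic6 and −0.43 for Prlr. Of the 9, the side of the threshold changed for Folr1, Enpp2 and Igfbp2 with a library left out, and for Kl without mock replicate 2, without a filter, by DESeq2's Wald test, by limma-voom and with the replicate block; these calls are part of the description and support nothing. The replicate number as a block gave 5433 genes called, 6 of the 9, 31, 28 and 47. Over all tested genes, the deviation of replicate 1 from its group mean correlated at 0.0775 between mock and LysoPS. The labels do not say what the numbers mark. Whether they pair the samples is therefore not known, and the fit without the block was kept. Cx3cr1, named after its values were seen, had 176 and 19.5 CPM in LysoPS and 132 and 13.4 CPM in mock. Replicate 1 thus lay far above replicate 2 in both groups. Its log2 fold change was 0.42 without the block and not called, and 0.47 with the block and called. Whether same-numbered libraries share a source was not tested. Prlr had at most 19 counts in any library, which limits its precision.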
